A study of Homo sapiens with 6 samples.

Results

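The peaks described here lie in the 2 genomic intervals that hold the clusters of replication-dependent histone genes, on chromosome 6 from 26000000 to 28000000 and on chromosome 1 from 149750000 to 149870000. Positions are those of hg19 throughout. A peak was taken when it overlapped either interval, which gave 134 of the 181131 peaks in the 4 deposited lists. The rule uses position alone and no peak value, though it was set with earlier results of these data known. In RIP-1 the intervals held 16 peaks of the list named mRNA and 15 of the list named NotExon, here called the non-exon list. In RIP-2 they held 14 and 89. The authors' peak numbers ran through each interval without a gap or a repeat in both experiments, so every peak called there stands in one of the lists.

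The data come from RNA immunoprecipitation and sequencing (RIP-seq) with an antibody to SF3B4 in wild-type HEK293T cells, a human line derived from embryonic kidney. Per the labels there were 6 libraries, an anti-SF3B4, a non-specific IgG and an input library in each of 2 experiments, RIP-1 and RIP-2, with no treatment or genotype differing between them. Libraries were built after depletion of ribosomal RNA, for input and immunoprecipitates alike. Each experiment was deposited as 1 peak call against a control that the sources used here do not name, so no value carries a replicate error, library depth is unknown, and no test was made between the experiments.

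Replication-dependent histone genes supply the nucleosome proteins H2A, H2B, H3 and H4 and the linker protein H1 during DNA synthesis. They have no introns, and their messenger RNAs end in a conserved stem-loop in place of a poly(A) tail. That 3′ end is cut with the help of the U7 small nuclear ribonucleoprotein and the stem-loop binding protein. SF3B4 belongs to SF3b, a complex within the U2 small nuclear ribonucleoprotein, which recognises intron branch sites in splicing. U2 has also been described on intronless histone pre-mRNA, where it aids 3′ end formation. The series title pairs SF3B4 with METTL16, an RNA methyltransferase.

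RefSeq (GRCh38.p14) was used for names and for the order of neighbouring genes, since it is of another build than the peaks. From H1-1 to H2BC17 on chromosome 6 it lists 68 protein-coding genes in a row, of which 53 are histone genes: 6 of H1, 11 of H2A, 14 of H2B, 10 of H3 and 12 of H4. The histone genes come in runs. H1-1 to H1-2 (9 genes) is followed by the iron regulator HFE and by H4C3 to H4C8 (23 genes). After 9 other genes from BTN3A2 to ZNF322 come H2BC11 to H2AC12 (5 genes), then 5 others from PRSS16 to ZNF184, and last H2BC13 to H2BC17 (16 genes). On chromosome 1 the order from H2BC18 to H2AC21 holds 11 histone genes among 13. No gene name was assigned to a peak. The stretches richest in histone genes were set by round positions from general knowledge of the region, as 26000000 to 26300000, 27000000 to 27200000 and 27700000 to 27900000 on chromosome 6, and with the chromosome 1 interval they are called histone-dense. The remaining 1.3 Mb of the chromosome 6 interval is called the stretches between. This split, too, was made with earlier results of these data known. Some copies of these genes are nearly identical in their coding sequence. The sources used here do not say how reads that fit several copies were handled.

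By windows across the genome, the intervals stood high in mRNA-list peaks and not in non-exon peaks, but in RIP-2 the neighbouring sequence of chromosome 6 held more mRNA-list peaks than the interval. On chromosome 6 the mRNA lists held 14 (RIP-1) and 11 (RIP-2) peaks, against medians of 5 and 6 over the 1471 windows of 2 Mb that held a peak of any list. Among those windows the interval ranked 230 for RIP-1 and 306 for RIP-2. The 2 Mb before and after it held 16 and 14 mRNA-list peaks in RIP-2, both more than the 11 within, and 11 and 8 in RIP-1, both fewer than the 14 within. Non-exon peaks in the interval numbered 15 and 88, against medians of 17 and 88. On chromosome 1, with 2 (RIP-1) and 3 (RIP-2) mRNA-list peaks, the interval stood at or above 94.2% and 97.7% of windows of 120 kb by mRNA-list peaks. These shares include 1244 and 542 windows with the same count, its own among them, and the median window held 0. Windows were not matched for gene content. Of non-exon peaks the chromosome 1 interval had 0 in RIP-1 and 1 in RIP-2.

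Within the intervals and summed over stretches, mRNA-list peaks per Mb were more frequent in the histone-dense stretches than between them in both experiments. The counting intervals of the paired values overlap. In RIP-2 the mRNA list had 9 peaks in the histone-dense stretches, or 10.98 per Mb (exact Poisson 95% interval 5.02 to 20.8), and 5 in the stretches between, or 3.85 per Mb (1.25 to 8.98). In RIP-1 it had 8 and 8, or 9.76 per Mb (4.21 to 19.2) and 6.15 per Mb (2.66 to 12.1). These intervals cover counting error only, and the differences were not tested. The non-exon list of RIP-2 went the other way, with 20 peaks in the histone-dense stretches, or 24.4 per Mb (14.9 to 37.7), and 69 between them, or 53.1 per Mb (41.3 to 67.2), and here the intervals do not overlap. The 5 and 10 non-exon peaks of RIP-1 corresponded to 6.10 per Mb (1.98 to 14.2) and 7.69 per Mb (3.69 to 14.1).

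The mRNA list's share of the peaks in RIP-2 was 31.0% of 29 peaks in the histone-dense stretches (95% Wilson interval 17.3 to 49.2) and 6.76% of 74 between them (2.92 to 14.9), against 7.12% of the whole call. In RIP-1 it was 61.5% of 13 peaks (35.5 to 82.3) and 44.4% of 18 (24.6 to 66.3), against 29.8%. Neighbouring sequence on chromosome 6 gave 39.3% and 30.8% in RIP-1 for the 2 Mb before and after the interval, and 11.9% and 13.3% in RIP-2. Peaks are not independent replicates, so these shares were not tested.

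**Figure D1:**
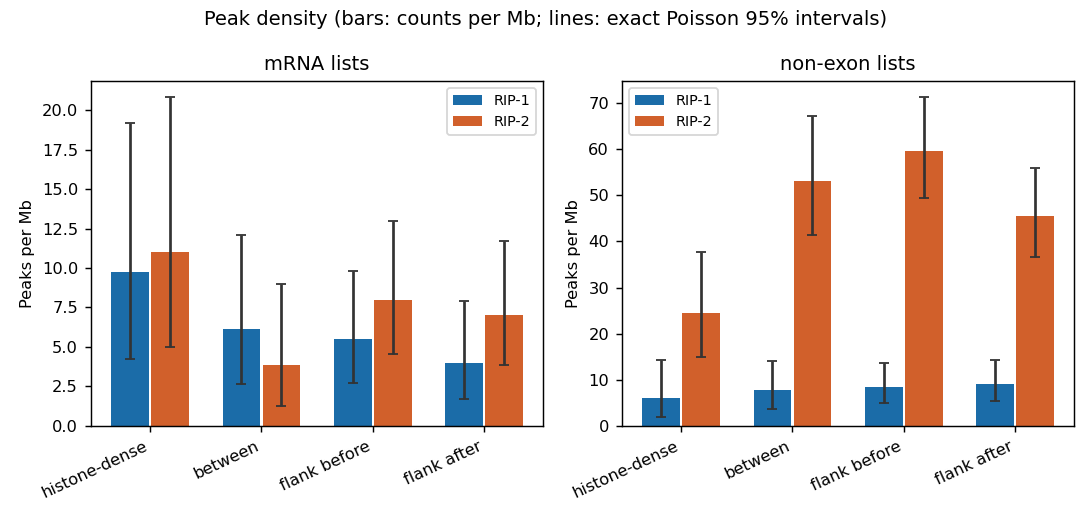
Peaks per Mb in the histone-dense stretches, in the stretches between them and in the 2 Mb of chromosome 6 before and after the interval, for the mRNA lists (left) and non-exon lists (right); bars are counts per Mb and lines exact Poisson 95% intervals. Summed over stretches, RIP-2 non-exon peaks stand at 24.4 per Mb in the histone-dense stretches and at 53.1 per Mb between them. RIP-2 mRNA-list peaks stand at 10.98 and 3.85 per Mb.

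Among the mRNA-list peaks, the strongest of RIP-1 lay in the histone-dense stretches, and RIP-2 showed no such pattern. The score of a peak is the authors' own value, which behaves as 10 times the negative log10 of the caller's p-value and starts at 50. Of the 8 histone-dense RIP-1 peaks, 6 scored above the 90th percentile of their list, which 10% of the whole list does by construction. None of the 8 RIP-1 peaks between the histone-dense stretches did. In RIP-2 the numbers were 1 of 9 and 1 of 5, again against 10%. Histone-dense peaks had a median score of 263 (RIP-1) and 74.7 (RIP-2), where the whole lists had 79.9 and 79.6, and that of the peaks between was 70.3 and 87.3.

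The highest RIP-1 score in the intervals was 1852, on the plus strand of chromosome 6 from 26021906 to 26022278, at rank 99 of 10960. The next was 1673, on the minus strand from 26285261 to 26285762, at rank 109. They lie near the opposite ends of the first histone-dense stretch, and both scored more than 4 times as high as any other RIP-1 peak of the intervals. Between them a minus-strand peak from 26123583 to 26124154 scored 237, and another from 26250369 to 26250835 scored 97.6. In the last histone-dense stretch of chromosome 6, a minus-strand peak from 27860476 to 27860963 scored 64.8 and a plus-strand peak from 27861202 to 27861669 scored 282. Only 239 bp separate this pair, which points away from each other as neighbouring H2A and H2B genes often do. The chromosome 1 peaks, both on the minus strand, scored 243 from 149783379 to 149783914 and 348 from 149857503 to 149858232.

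RIP-2 peaks in the same stretches were at other positions and mostly weak. The plus-strand peak from 26020717 to 26021184 scored 92.9, and the minus-strand peaks from 26031816 to 26032288 and from 26199011 to 26199521 scored 74.7 and 64.1. A plus-strand peak from 26204857 to 26205319 scored 59.8, a minus-strand one from 26234439 to 26235216 scored 89.7, and a plus-strand one from 27775976 to 27776821 scored 64.9. None of these 6 reached the upper quartile of the RIP-2 mRNA list, which is 114. On chromosome 1 a plus-strand piece of only 90 bp from 149762792 to 149762882 scored 223 and ranked 421 of 10280. The other chromosome 1 peaks of RIP-2 scored 100.2 from 149811786 to 149812765 on the minus strand and 66.2 from 149824180 to 149825159 on the plus strand.

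**Figure D2:**
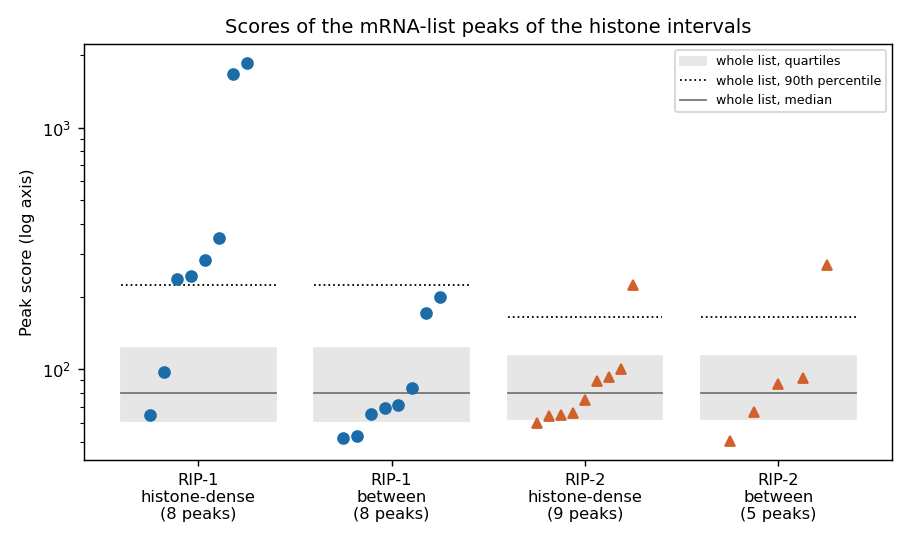
Scores of the mRNA-list peaks of both intervals (log axis), 1 point per peak, by experiment and by stretch; grey boxes span the quartiles of the whole list, grey lines its median and dotted lines its 90th percentile. In RIP-1, 6 of 8 histone-dense peaks lie above the dotted line and 2 of them stand apart at 1673 and 1852, while 1 of 9 does in RIP-2.

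Between the histone-dense stretches the mRNA lists held 8 RIP-1 and 5 RIP-2 peaks. In the first of these stretches 6 of 7 RIP-1 peaks were on the plus strand, where 51.2% of the whole list is. The histone-dense RIP-1 peaks went the other way, with 2 on the plus and 6 on the minus strand. RIP-2 showed no such contrast, with 5 plus and 4 minus in the histone-dense stretches and 3 and 2 between them. Its whole list is 51.8% plus. Over both intervals RIP-1 had 8 peaks on each strand, and strand was not tested. The plus-strand RIP-1 peaks between the histone-dense stretches scored 69.2 from 26365386, 53.0 from 26370549 and 199.5 from 26383660. Further along they scored 171 from 26467946, 51.9 from 26545354 and 65.2 from 26598492. The other RIP-1 peaks between, on the minus strand, scored 71.4 from 26658785 and 83.7 from 27440066. The highest-scoring RIP-2 mRNA-list peak of the intervals also lay between the histone-dense stretches. It scored 270 on the plus strand from 26451902 to 26452973, at rank 225. The rest of RIP-2 there scored 87.3 from 26506910, 50.5 from 26635480, 66.8 from 27253681 and 91.7 from 27925643. In RIP-2 the highest score between the histone-dense stretches, 270, exceeded the highest within them, 223, while in RIP-1 it was 199.5 against 1852.

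Widths of the histone-dense mRNA-list peaks fell in a narrow range. All 8 of RIP-1 were 372 to 729 bp wide, with a median of 494 bp, and 8 of 9 of RIP-2 were 462 to 979 bp wide, with a median of 510 bp over all 9. Whole-list medians were 216 and 160 bp. A range of 350 to 1000 bp, chosen after the widths were seen, held 16 of these 17 peaks, against 23.8% of one whole list (RIP-1) and 19.4% of the other (RIP-2). It held 2 of 8 and 1 of 5 of the peaks between. The RefSeq lengths of the 53 chromosome 6 histone genes had a median of 487 bp, and 48 of them were within that range. The 11 of chromosome 1, which holds 5 of the 17 peaks, had a median of 522 bp, with 8 in the range and the longest at 29682 bp. For comparison, RIP-1 peaks between the stretches were 89 to 1935 bp wide. Widths in both whole mRNA lists start at 1 bp, against 206 bp (RIP-1) and 200 bp (RIP-2) in the non-exon lists. Whether mRNA-list edges were set by annotated exons was not tested. The likeness of these widths to gene lengths may thus come from annotation, and it is given as a description only.

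The comparison of the experiments asks which segments were called in both. No mRNA-list peak of the histone intervals was: 0 of 16 RIP-1 peaks and 0 of 14 RIP-2 peaks shared 1 bp or more, same strand, with a peak of the other experiment. In the whole lists 6.41% of RIP-1 and 6.91% of RIP-2 peaks did. Counts of 0 allow shares of up to 18.8% and 21.4%, so with this number of peaks a count of 0 cannot be told apart from the background share. The strand made no difference, and none of the 30 overlapped a non-exon peak of the other experiment either. The closest approach was 722 bp, between the RIP-1 peak that scored 1852 and the RIP-2 peak from 26020717, which share the plus strand. The next pair was 9538 bp apart, between the same RIP-1 peak and the minus-strand RIP-2 peak from 26031816. No other RIP-1 peak lay closer than 14973 bp to a RIP-2 mRNA-list peak. The median distance from a RIP-1 peak to the nearest RIP-2 mRNA-list peak was 44172 bp.

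**Figure D3:**
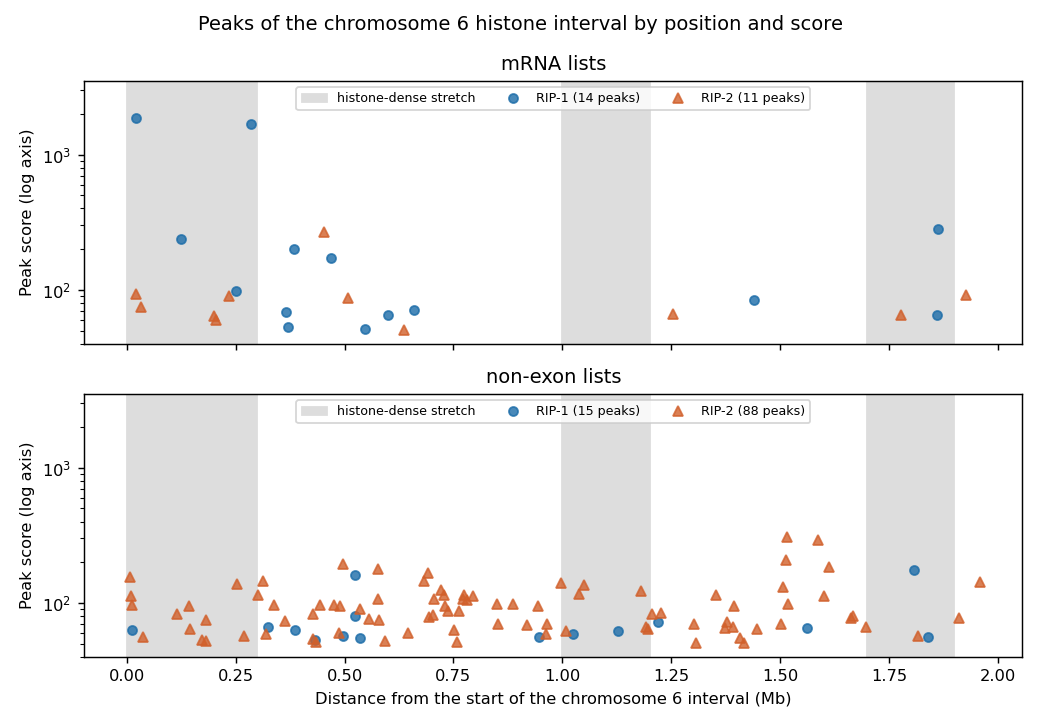
Peaks of the chromosome 6 interval by distance from its start (Mb) and score (log axis), for the mRNA lists (top) and the non-exon lists (bottom); circles are RIP-1, triangles RIP-2, and grey bands the histone-dense stretches. RIP-1 mRNA-list peaks of 1852 and 1673 stand alone near the ends of the first band, and the second band has no mRNA-list peak in either experiment.

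Set against their whole lists, non-exon peaks of the intervals held none of the high fold enrichments in RIP-1 and more of them in RIP-2. Neither difference was tested. The RIP-1 peaks had a median score of 62.6 (range 52.8 to 174.4) and the RIP-2 peaks of 86.8 (50.6 to 309.8), against whole-list medians of 66.9 and 80.6. The authors' fold enrichment over control had a median of 5.95 (RIP-1) and 8.68 (RIP-2), where the whole lists had 6.55 and 8.19. Above the upper quartile of fold enrichment of their list stood 0 of 15 RIP-1 peaks, against 24.9% of the list, and 33 of 89 RIP-2 peaks, against 24.5%. Some of these RIP-2 peaks belong to the mirrored pairs of equal width described below. A false discovery rate (FDR) of 5% or less was reached by none, where 0.678% (RIP-1) and 0.0% (RIP-2) of the whole lists reach it. The FDR was 100% for 13 of 15 RIP-1 peaks and 42 of 89 RIP-2 peaks, against 94.1% and 41.6% of the lists, and the lowest values were 61.0% and 68.6%.

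The highest fold enrichment of RIP-1 in the intervals was 7.29, from 26384779 to 26386538 on chromosome 6. This peak lay 636 bp beyond the mRNA-list peak from 26383660 that scored 199.5, the only RIP-1 non-exon peak within 1 kb of one. The next values were 7.21 from 27126399, 7.12 from 26524597, 6.67 from 26494908 and 6.45 from 27219421. By score, the strongest was a peak of 174.4 from 27806271 to 27806922 in the last histone-dense stretch, with a fold enrichment of 4.66 and the lowest FDR. No RIP-1 non-exon peak of the histone-dense stretches lay closer than 9387 bp to an mRNA-list peak of the same experiment.

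In RIP-2 the highest fold enrichment was 23.8, from 27514705 to 27515430, with a score of 309.8, at rank 195 of 134094 by fold. It lies between the histone-dense stretches, beside a peak of 13.97 from 27512544. The next highest were 16.38 from 26575340 and 15.90 from 26692151, and 3 peaks shared the value 14.94, from 26301634 and 26682567 on chromosome 6 and from 149759305 on chromosome 1. The last is the only non-exon peak of the chromosome 1 interval, spans 427 bp, scored 183.5 and lay 3061 bp before the 90 bp mRNA-list piece. Of these 6 peaks it alone was histone-dense. No other RIP-2 non-exon peak of the intervals was within 5 kb of an mRNA-list peak of the same experiment.

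**Figure D4:**
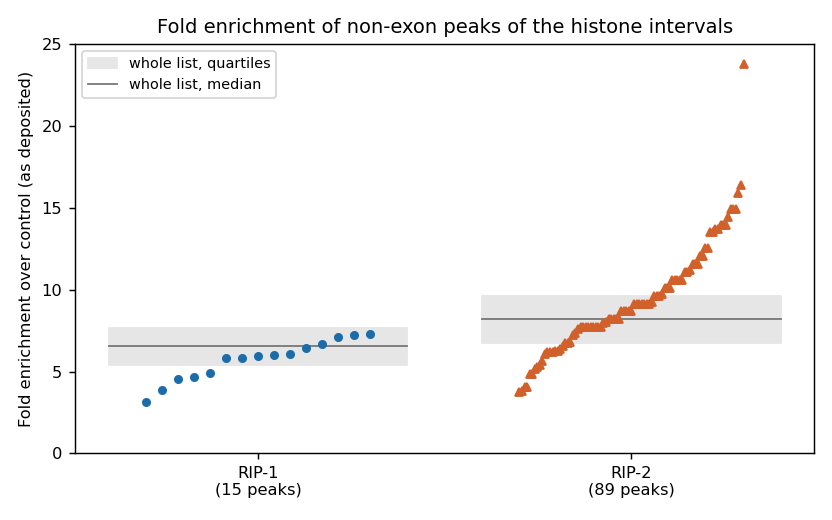
The authors' fold enrichment of the non-exon peaks of both intervals, 1 point per peak in rising order; grey boxes span the quartiles of the whole list and grey lines mark its median. All 15 RIP-1 peaks lie at or below 7.29, and the RIP-2 peaks reach 23.8.

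Sharing of non-exon peaks covered 3 of the 15 RIP-1 peaks (20%, 95% Wilson interval 7.05 to 45.2), against 18.1% of the whole list. Of the 89 RIP-2 peaks, 3 overlapped one of RIP-1 (3.37%, 1.15 to 9.45), against 3.63%. Both shares are near the background. One pair overlapped by at least 50% of both peaks, from 26494908 to 26495629 in RIP-1 and from 26495069 to 26495927 in RIP-2, with 561 bp in common. Its scores were 56.8 and 192.7 and its fold enrichments 6.67 and 12.05. Another, from 26011710 in RIP-1 and 26012201 in RIP-2, was in the first histone-dense stretch and had 319 bp in common, and the third, from 26534425 and 26534049, had 302 bp in common.

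Among the 20 bins of 100 kb of the chromosome 6 interval, the highest count in any list was 13 RIP-2 non-exon peaks, between the first and the second histone-dense stretch. Around position 26751049, 8 of the 13 peaks within 50 kb formed 4 pairs in mirror image. Peaks of 1077 bp stood 12.7 kb on either side, of 938 bp at 21.4 kb, of 971 bp at 22.9 kb and of 642 bp at 30.6 and 30.7 kb. The centres of the 4 pairs lay within 13.5 bp of their median. Scores were identical in 2 pairs, at 86.8 and at 115.0, and were 95.2 and 106.7 in the pair of 938 bp and 125.6 and 105.0 in the pair of 642 bp. RIP-1 had 0 peaks of either list within 50 kb of this point, and the RIP-2 mRNA list had 0 too. Empty bins were common in RIP-1: of the 20, 11 held no mRNA-list peak and 10 no non-exon peak.

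A single same-width pair, of mRNA-list and not of non-exon peaks, stood in the histone cluster of chromosome 1. The RIP-2 mRNA-list peaks from 149811786 to 149812765 and from 149824180 to 149825159 were both 979 bp wide, on opposite strands and 11415 bp apart. RefSeq lists the near-copies H3C14 and H3C15, genes of histone H3, in this cluster. Whether the 2 peaks lie on these genes was not tested. Over all members, 10 of 89 RIP-2 non-exon peaks (11.2%) had a peak of exactly their width within 100 kb, against 1.71% of the whole list. Of these 10, 8 are the mirrored peaks themselves, and without them 2 of 81 (2.47%) did, near the share of the whole list. In the mRNA lists the numbers were 2 of 14 in RIP-2 against 1.97% and 1 of 16 in RIP-1 against 1.01%, and in RIP-1 non-exon peaks 0 of 15 against 0.364%. This search was made after the mirrored widths were seen, so its count is a description of them. Sequence duplication and the handling of reads that fit several places were not tested. With each such pair counted once, the stretches between held 64 RIP-2 non-exon peaks, or 49.2 per Mb (37.9 to 62.9), still above the pooled interval of the histone-dense stretches.

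**Figure D5:**
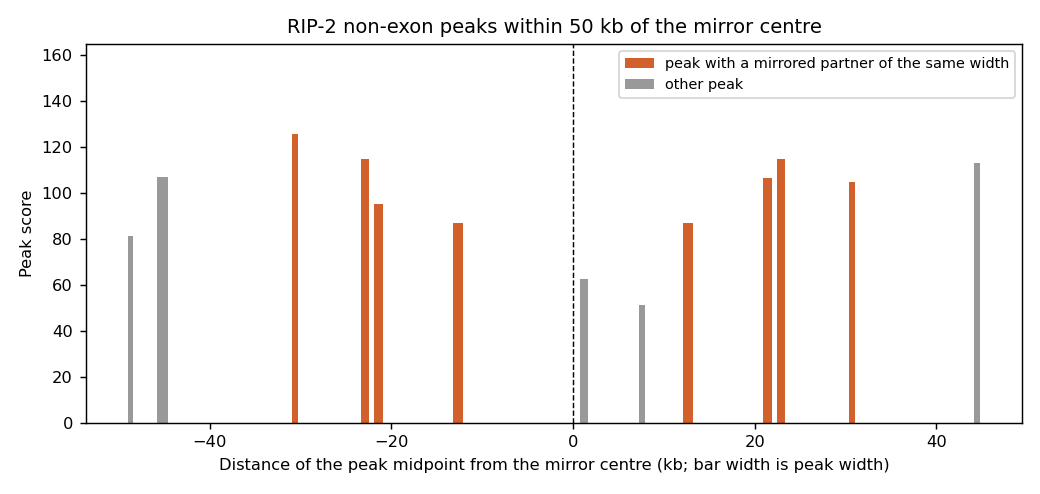
RIP-2 non-exon peaks within 50 kb of the mirror centre, by distance of the midpoint from it (kb) and score; the width of a bar is the width of the peak, and coloured bars have a partner of the same width on the other side. The 4 coloured pairs stand at 12.7, 21.4, 22.9 and about 30.7 kb on either side.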

How the data were processed

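Reads were handled by the authors with cutadapt 1.9.3 and HISAT2 2.0.4 on hg19, per the submitters' processing notes; peaks carry the MACS prefix, with version, settings and control not given in the sources used here. The deposited peak score, fold enrichment (a ratio) and FDR (in percent) have no header, so their meaning was read from the values and the column order. The fold and the FDR stand only in the non-exon lists. Non-exon positions are 1-based and inclusive; the base of the mRNA lists is unknown (1 bp). Depth is unknown.

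Python 3.11.15 with pandas 2.3.3 and scipy 1.17.1 was used. Peaks overlapping the intervals by at least 1 bp were members. Overlap between experiments needed 1 bp, and the same strand in the mRNA lists. The overlap step was tested on simulated data. Poisson and Wilson intervals (95%) cover only counting error and assume independent peaks.

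The members, stretches and lists were chosen with earlier results of these data known. All mRNA-list members were named, and of the non-exon members the 5 highest by fold per experiment (with ties), those of chromosome 1, any with an FDR of 5% or less and pairs overlapping by 50% of both; others named were chosen after their values were seen. Alternatives were stricter overlap, score and length limits, midpoints, chromosome 6 alone and the histone-dense stretches. The published sequence of hg19 was not used here.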

Additional observations from a re-analysis of the deposited data

How the results depend on the processing

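Of 50 alternative values, 35 stayed within 1.5 times the main count or, for median scores, within the 95% interval of the median. The 4 with same-width pairs counted once, an alternative chosen after the data were seen, are among them. The upper 50% by score left 10 RIP-1 and 7 RIP-2 mRNA-list peaks and 4 and 50 non-exon peaks. The histone-dense stretches alone left 8 and 9 mRNA-list peaks and 5 and 20 non-exon peaks. These are smaller by construction. With RIP-2 cut to the length of RIP-1, 16 RIP-2 non-exon peaks remained. The 3 shared non-exon peaks of each experiment became 1 with at least 50% of both peaks overlapping, 0 in the upper 50% by score and 1 in lists of equal length. The 0 shared mRNA-list peaks stayed 0 under all 6 alternatives in each experiment. Only ignoring strand, alone or with both kinds of list, could have raised this count. The other alternatives use stricter overlap or fewer peaks, so their values of 0 were fixed in advance. All these values of 0 count among the 35. No paired analysis was possible because the lists hold no values for separate libraries, and leaving out a replicate was not possible for the same reason. Few peaks per stretch and unknown depth limit every comparison.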

Other observations

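Other same-width peaks did not share the mirror centre. RIP-2 non-exon peaks of 594 bp from 26758304 and from 26795285 on chromosome 6 lay 36388 bp apart on the same side of it, with scores of 51.2 and 113.1. The RIP-1 mRNA-list peak of chromosome 1 from 149783379 to 149783914, 535 bp wide with a score of 243, had a peak of the same width and strand just outside the interval, from 149875489 to 149876024, with a score of 62.1.

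The second histone-dense stretch of chromosome 6 held no mRNA-list peak in either experiment, and 2 RIP-1 and 6 RIP-2 non-exon peaks. Over the 20 bins of 100 kb of the chromosome 6 interval, mRNA-list peaks of each experiment occupied 9 bins, while RIP-1 non-exon peaks occupied 10 and RIP-2 non-exon peaks 19.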
